A study of Mus musculus with 4 samples.

Results

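The Ms4a genes described here are 9 members of the membrane-spanning 4-domain family (Ms4a1, Ms4a2, Ms4a3, Ms4a4b, Ms4a4c, Ms4a6b, Ms4a6c, Ms4a6d and Ms4a7), chosen by symbol among the 31053 genes counted in cells of mouse bone. They were read in barcodes with 1000 to 40000 unique molecular identifiers (UMIs, each marking 1 captured transcript molecule) of which at most 10% were mitochondrial, in all 4 libraries of the series. The rule itself used no measured level of these genes, but the members were chosen with earlier results of these data known. Each further Ms4a gene listed had fewer UMIs in the cells kept (at most 587, in Ms4a4a) than the lowest member (866, in Ms4a7). The question was which member marks which blood lineage in bone and whether its level differs after unloading. Of 40003 barcodes, 32217 met the rule. After a minimum of 200 genes and the removal of 2086 putative doublets, 30042 cells remained.

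The libraries came from 2 control mice (Ctrl) and 2 mice under hindlimb unloading (HLU), in which tail suspension for 28 days keeps weight off the hind limbs. All 4 mice were wild type, 1 library each, and the study's methods give the suspended strain as C57BL/6J. The series text places the experiment at postnatal day 28 whereas the methods describe older mice, so the age of these animals is not settled. Tibiae and femurs were flushed with saline to remove marrow, digested with enzymes and captured in droplets with a 3′ kit (10x Genomics), so that blood cells in these libraries are those that stayed in or on the bone. Ctrl replicates 1 and 2 gave 6905 and 7164 of these cells and HLU replicates 1 and 2 gave 7254 and 8719, at median depths of 3757 to 6164 UMIs per cell. Skeletal cells made up far less of both HLU libraries: chondrocyte-like cells were 30.6% and 27.9% of the Ctrl cells but 4.33% and 2.11% of the HLU cells. HLU replicate 2 stood apart, with 14.3% monocyte-like cells against 2.81% to 5.90% in the other libraries and 319 of the 364 erythroid-like cells. Between 10 and 20 barcodes occurred in any pair of libraries.

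MS4A proteins cross the membrane with 4 helices and keep both ends inside the cell. The best known are CD20, encoded by Ms4a1, a surface protein of B cells that takes part in signalling of the B cell receptor, and the β chain of the high-affinity IgE receptor, encoded by Ms4a2, which amplifies the signal of that receptor in mast cells and basophils. Ms4a3 is known from granulocyte and monocyte progenitors, where it is used as a lineage marker. Ms4a4b is known from T cells, in which its product sits beside co-stimulatory receptors, and the Ms4a6 genes and Ms4a7 are known from monocytes, macrophages and microglia. The roles of Ms4a4c and of the Ms4a6 proteins are less well described.

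All 9 genes lie in 1 cluster on mouse chromosome 19 (GENCODE M21 on GRCm38), from base 11249675 to base 11640851, a span of 391.2 kb. From low to high coordinates they run Ms4a1, Ms4a7, Ms4a4c, Ms4a4b, Ms4a6c, Ms4a6b, Ms4a6d, Ms4a2 and Ms4a3, with other genes of the family between some of them. Ms4a4c, Ms4a4b, Ms4a6c and Ms4a6b lie on the plus strand and the other 5 on the minus strand. Ms4a4b (chr19:11443553-11467055) ends 2310 bases before Ms4a6c (chr19:11469366-11482192) begins, and Ms4a2 (chr19:11615523-11623719) and Ms4a3 (chr19:11629496-11640851) are 5776 bases apart. Neighbours were not always the closest in sequence. Over the coding sequence Ms4a4b and Ms4a4c were 91.7% identical, Ms4a6b and Ms4a6d 80.1%, Ms4a6b and Ms4a6c 74.7% and Ms4a6c and Ms4a6d 67.2%, while no other pair exceeded 52.4%. Because a 3′ library reads the end of a transcript, the last 500 bases matter for telling such copies apart: 7.48% of the runs of 60 bases in Ms4a4c also occurred in Ms4a4b, 9.52% of those in Ms4a6c occurred in Ms4a6b or the predicted gene Gm44997, and none of those in the other 7 genes occurred elsewhere. Values of Ms4a4c and Ms4a6c are therefore less certain than those of the rest.

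The stretches before the transcription start are shown because 2 pairs of members have similar promoters but were read in partly different cells, as described below. RefSeq promoters on GRCm38.p6 were at hand for 7 of the 9 genes (not for Ms4a1 and Ms4a6d). Each sequence is written 5′ to 3′ on the strand of its gene and covers the 150 bases that end at or just before the start (5 bases short of it in Ms4a4b, 2 in Ms4a6c), except that of Ms4a6b, which covers 144 bases and ends 106 bases before the start. Capitals mark AGATAA, the core that GATA factors of mast cells and basophils bind, or GGAAGT, a core bound by PU.1 and other ETS factors, on either strand. The stretch of Ms4a6b was cut where an annotated exon begins. It holds neither motif, since its 2 GGAAGT matches begin at bases -85 and -43. The stretches of Ms4a4c and Ms4a6b lie inside their genes as annotated in GENCODE M21, and so do the bases before a second start of Ms4a7. These RefSeq starts are therefore not the first bases of the annotated genes.
Ms4a2, chr19:11623720-11623869, minus strand: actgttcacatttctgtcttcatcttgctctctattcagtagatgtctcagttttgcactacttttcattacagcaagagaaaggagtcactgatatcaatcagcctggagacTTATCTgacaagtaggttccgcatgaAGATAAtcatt
Ms4a3, chr19:11640852-11641001, minus strand: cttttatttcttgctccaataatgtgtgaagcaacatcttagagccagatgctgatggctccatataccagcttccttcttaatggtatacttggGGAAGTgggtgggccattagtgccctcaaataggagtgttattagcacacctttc
Ms4a4b, chr19:11443403-11443552, plus strand: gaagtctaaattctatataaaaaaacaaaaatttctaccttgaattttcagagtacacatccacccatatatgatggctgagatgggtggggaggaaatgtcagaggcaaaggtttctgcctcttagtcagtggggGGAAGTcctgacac
Ms4a4c, chr19:11407511-11407660, plus strand: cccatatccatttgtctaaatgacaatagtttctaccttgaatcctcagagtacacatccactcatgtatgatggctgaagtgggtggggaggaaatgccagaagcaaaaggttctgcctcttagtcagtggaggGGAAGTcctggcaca
Ms4a6b, chr19:11518309-11518452, plus strand: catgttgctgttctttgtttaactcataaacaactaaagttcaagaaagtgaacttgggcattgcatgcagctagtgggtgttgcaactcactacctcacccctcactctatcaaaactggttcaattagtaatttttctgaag
Ms4a6c, chr19:11469216-11469365, plus strand: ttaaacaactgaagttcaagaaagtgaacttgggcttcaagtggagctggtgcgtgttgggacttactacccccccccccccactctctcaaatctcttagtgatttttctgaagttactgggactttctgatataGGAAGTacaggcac
Ms4a7, first start, chr19:11336147-11336296, minus strand: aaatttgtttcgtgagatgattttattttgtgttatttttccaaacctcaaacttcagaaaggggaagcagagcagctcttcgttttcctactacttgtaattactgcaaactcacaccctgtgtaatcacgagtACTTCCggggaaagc

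In the 250 bases before each start, AGATAA or its reverse complement TTATCT occurred only in Ms4a2 among the 8 windows (Ms4a7 has a second start), 3 times, beginning at bases -224, -37 and -11 (counted from -1 at the last base before the start). By comparison, 9.97% of 32536 RefSeq promoters of this length held the motif. GGAAGT or ACTTCC occurred in 6 of the 8 windows, in those of Ms4a3, Ms4a4b, Ms4a4c, Ms4a6b, Ms4a6c and the first start of Ms4a7, against 19.8% of all promoters, and in Ms4a4b, Ms4a4c, Ms4a6c and Ms4a7 it began between bases -19 and -15. TGTGGT, bound by RUNX factors (13.96% of all promoters), was found in Ms4a4c, and TATAAA (12.3%) in Ms4a4b. TTGCNNAA, a core of C/EBP factors (9.57%), was found in none of the 8 windows on either strand. The motifs do not overlap one another in these windows. A match is no proof of binding, and the shares of all promoters are given as a description. In local alignments of the full 250 bases before each start, which run beyond the printed stretches, 114 of 128 aligned positions (89.1%) were identical between Ms4a4b and Ms4a4c, and 152 of 182 between Ms4a6b and Ms4a6c (83.5%).

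Cells were grouped by clustering without any Ms4a gene and named from raised marker genes, which gave 20 named classes (called like cells of that type below) and 2 clusters without a name. Levels are given as UMIs of a gene scaled to 1000000 UMIs of its class in 1 library (CPM), with the mean and SD over libraries with at least 5 cells of the class. They are read along each gene and not between genes. Since clusters and levels come from the same cells, levels by class are a description with no test. Counting error alone is covered by the intervals given for shares of cells.

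Each member had most of its UMIs, pooled over the libraries, in 1 class. By library the share in that class varied, from 54.8% to 87.4% for Ms4a2, 50.9% to 72.5% for Ms4a4c and 55.1% to 73.3% for Ms4a6b. Ms4a1 had 94.0% of its UMIs in mature B-like cells, Ms4a2 83.4% in basophil- or mast-like cells, Ms4a3 87.1% in neutrophil progenitor-like cells and Ms4a4b 75.2% in T-like cells. Monocyte-like cells held 64.5% of the Ms4a4c UMIs, 70.3% of Ms4a6b, 88.8% of Ms4a6c, 91.2% of Ms4a6d and 71.4% of Ms4a7. These shares move with how many cells of a class were caught, and the class with the highest CPM was another one for 4 of these 5 genes. It was plasmacytoid dendritic-like cells for Ms4a4c, T-like cells for Ms4a6b and macrophage-like cells for Ms4a6d and Ms4a7.

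**Figure D1:**
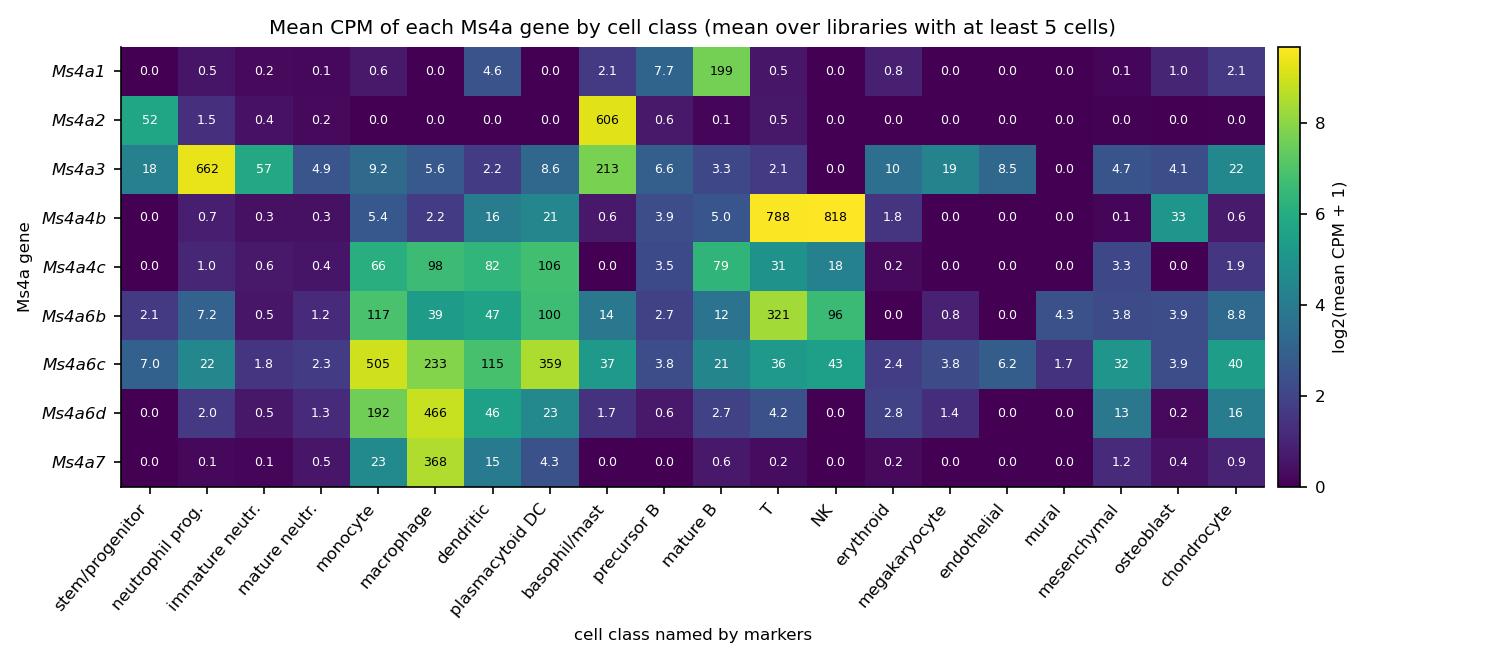
Mean level of the 9 Ms4a genes (rows) in the 20 named cell classes (columns), with the mean CPM over libraries printed in each square and colour giving log2(mean CPM + 1). The highest means were in mature B-like cells for Ms4a1 (199), basophil- or mast-like cells for Ms4a2 (606), neutrophil progenitor-like cells for Ms4a3 (662), NK-like and T-like cells for Ms4a4b (818 and 788) and monocyte-like cells for Ms4a6c (505), while Ms4a4c was spread over 5 classes.

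Ms4a1 separated mature B-like cells from every other class. Its level there was 65.3 CPM in Ctrl replicate 1 and 102 CPM in Ctrl replicate 2, against 313 CPM in each of the HLU libraries (199 ± 133, SD, n = 4). Both HLU libraries lay above both Ctrl libraries. Precursor B-like cells, named by the surrogate light chain genes Vpreb1, Vpreb3 and Igll1, came next with 6.27, 4.32 and 12.5 CPM in the 3 libraries that held more than 1 such cell, from 9 UMIs in all, so Ms4a1 was low before the mature stage. All other classes averaged 4.56 CPM or less, each from at most 29 UMIs. In mature neutrophil-like cells, which should lack the gene, a UMI was seen in 0 to 0.08% of cells of each library at a median depth of 1897 to 3968 UMIs. In mature B-like cells it was seen in 25.8% (95% exact interval 20.4 to 31.9), 30.5% (26.1 to 35.1), 58.3% (54.0 to 62.6) and 52.6% (48.0 to 57.1) of cells, at median depths of 6424, 4506, 3501 and 2590 UMIs.

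The difference between conditions in Ms4a1 varied with the cells compared. In edgeR's quasi-likelihood test on summed counts, Ms4a1 was higher in HLU mature B-like cells by 1.63 ± 0.30 on the log2 scale (estimate ± SE, n = 2 libraries per group, adjusted p = 0.00549), and 4 of the 5 members tested in this class were called higher (Ms4a1, Ms4a4b, Ms4a4c and Ms4a6c), 3 of them by DESeq2 too. The background was high, with 20.4% of 9840 genes called and 4.77% called higher. The class was made of cluster 12, led by immunoglobulin genes (Igkc, Cd79a, Ighd), and cluster 16, led by Cd83, Tnfrsf13c and Ccr7. In cluster 16, a UMI of the B cell receptor genes Cd79a or Cd79b was found in 19.5% and 32.0% of the Ctrl cells and in 90.2% and 78.2% of the HLU cells. Skeletal transcripts took 2.42% and 1.19% of the UMIs of this class in Ctrl but 0.0018% and 0.0011% in HLU.

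Within cluster 12, Ms4a1 stood at 251 and 265 CPM in Ctrl and 388 and 420 CPM in HLU. Here the difference was 0.39 ± 0.27 (adjusted p = 0.954, edgeR), and 0 of 3 members tested were called, against 0.609% of 6897 genes. In cluster 16 Ms4a1 stood at 26.5 and 39.5 CPM in Ctrl and 212 and 217 CPM in HLU, a difference of 2.40 ± 0.27 (adjusted p = 0.000896), with 3 of 4 members called and 29.2% of 8681 genes called. When only cells with a Cd79a or Cd79b UMI were kept (108 and 241 Ctrl cells, 505 and 439 HLU cells), Ms4a1 reached 219, 216, 323 and 341 CPM, and the difference was 0.43 ± 0.25 (adjusted p = 0.730 in edgeR's fit, 0 of 4 members called, 1 at an unadjusted p under 0.05, with 2.42% of 8293 genes called). Among the cells without such a UMI, the 132 and 179 Ctrl cells held Ms4a1 at 2.16 and 12.2 CPM and the 16 and 42 HLU cells at 89.9 and 131 CPM. Among cells with such a UMI both HLU libraries were thus above both Ctrl libraries, and the difference did not pass the test. The cells without one were mostly of cluster 16 (132 and 153 in Ctrl, 15 and 39 in HLU). In cluster 12 the 26 such cells of Ctrl replicate 2 stood at 162 CPM, against 0 in 1 cell of HLU replicate 1 and 554 CPM in 3 cells of HLU replicate 2. Whether cells without such a UMI are of the same kind in both groups was not tested.

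**Figure D2:**
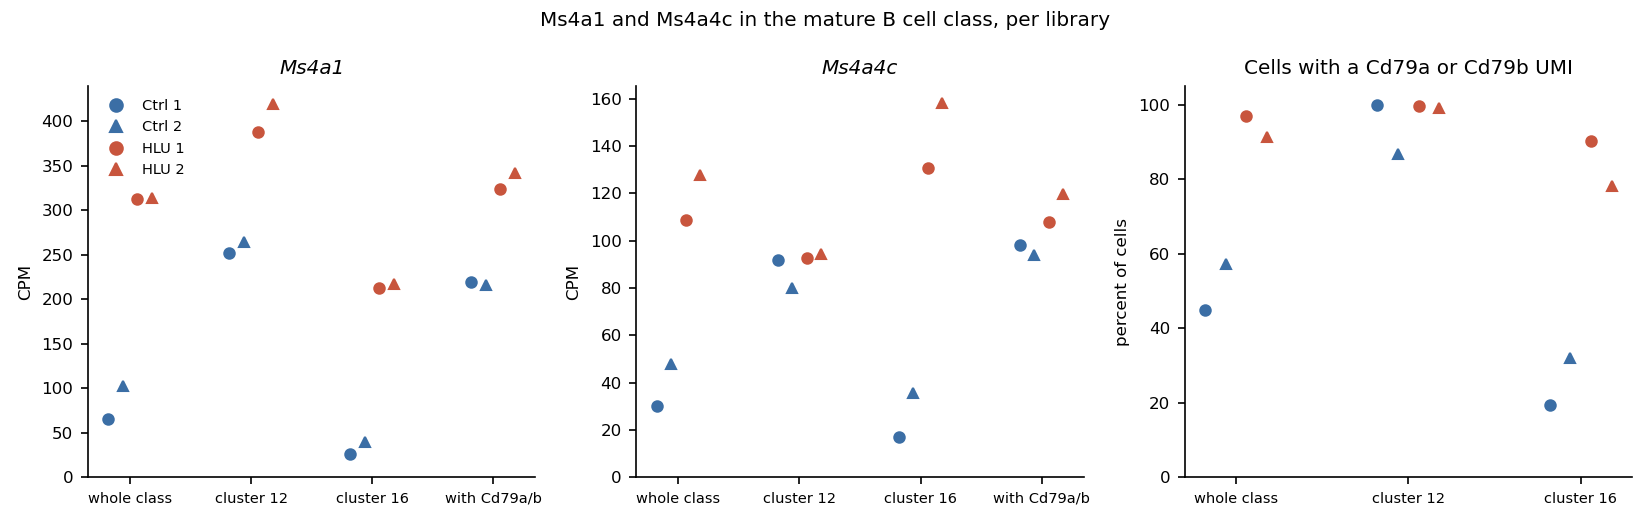
Ms4a1 (left) and Ms4a4c (middle) in CPM per library for the whole mature B-like class, for clusters 12 and 16 and for cells with a Cd79a or Cd79b UMI, and the percentage of cells with such a UMI (right), with circles for replicate 1 and triangles for replicate 2. Ctrl and HLU lie apart in the whole class and in cluster 16, where 19.5% and 32.0% of the Ctrl cells carry a Cd79a or Cd79b UMI against 90.2% and 78.2% of the HLU cells, and lie close together for Ms4a4c in cluster 12.

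The calls of Ms4a4b and Ms4a6c in this class rested on few molecules. Ms4a4b, the T cell member, had 3 and 3 UMIs in Ctrl and 21 and 12 in HLU (2.35 ± 0.58, adjusted p = 0.0212, edgeR), and Ms4a6c, the monocyte member, had 2, 16, 39 and 88 UMIs, or 1.02, 6.40, 16.98 and 58.3 CPM (2.95 ± 0.76, adjusted p = 0.0260, edgeR). Neutrophil transcripts in the class went from 0.226% and 0.394% of UMIs in Ctrl to 0.656% and 1.14% in HLU, and their part in these 2 calls was not tested. The monocyte marker list stood at 0.301% and 0.209% in Ctrl and 0.005% and 0.0089% in HLU, but it is no measure of monocytes here, since it was higher in chondrocyte-like cells (0.718% to 1.07%) than in monocyte-like cells (0.288% to 0.406%). Ms4a6b did not pass (1.28 ± 0.57, adjusted p = 0.157). Fewer members were called in the class without Ctrl replicate 1 or without HLU replicate 2, in fits that left 1 library in that group. The share of all genes called in these fits is not given here, so this is no result about the members.

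Some genes of B cell receptor signalling were called beside Ms4a1. Of a list of 10, all 10 were tested in mature B-like cells, and 4 rose, where 4.77% of all genes tested were called higher, and 0 fell, with a median of 1.14 against -0.0024 for all genes. Of those reported here, Cd40, which receives T cell help, rose by 1.61 ± 0.36 (adjusted p = 0.0127), Ighm, the μ heavy chain, by 1.26 ± 0.37 (adjusted p = 0.0448) and Blnk, the adaptor behind the receptor, by 1.11 ± 0.31 (adjusted p = 0.0379), all in edgeR's fit. Cd79a (1.12 ± 0.38, adjusted p = 0.0760) and Cd79b (1.12 ± 0.38, adjusted p = 0.0704) did not pass. Among cells with a Cd79a or Cd79b UMI 0 of these 10 genes passed and the list's median was -0.06. Cd79a and Cd79b are themselves in the list and select these cells. Their outcome there, and part of the shift in the median, is therefore set by the selection. Genes of the IgE receptor pathway rose in the whole class as well, 4 of 8 tested in edgeR's fit. Of these, B cells also use the kinases Btk (1.65 ± 0.29, adjusted p = 0.00385), Syk (1.64 ± 0.37, adjusted p = 0.0149) and Lyn (1.55 ± 0.36, adjusted p = 0.0152). The other was Fcer1g (1.29 ± 0.39, adjusted p = 0.0475), the γ chain that Fc receptors share and no gene of the B cell receptor list. Among cells with a Cd79a or Cd79b UMI 0 of 8 passed.

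Ms4a2 marked a small class. Basophil- or mast-like cells (Mcpt8, Prss34, Cpa3 and Gata2 raised) numbered 10 and 22 in Ctrl and 37 and 70 in HLU, and all 8 markers of the class were present in each library. Ms4a2 stood at 314.5 and 362 CPM in Ctrl and at 617 and 1129 CPM in HLU, from 17, 58, 156 and 501 UMIs (606 ± 373, SD, n = 4). Every HLU value was above every Ctrl value, and no test was made because 1 library held under 20 cells. A UMI of Ms4a2 was found in 40.0% (95% exact interval 12.2 to 73.8), 45.5% (24.4 to 67.8), 67.6% (50.2 to 82.0) and 77.1% (65.6 to 86.3) of these cells, against 0 to 0.16% of mature neutrophil-like cells. The class had 2 parts. Cluster 24.0, in which Cpa3 and Fcer1a were among the leading genes, held Ms4a2 at 426, 444, 679 and 1294 CPM in the order Ctrl 1, Ctrl 2, HLU 1, HLU 2. Cluster 24.3, with Gata2, Cyp11a1 and Cd200r3 in front, held 0 and 0 UMIs in its 4 and 7 Ctrl cells and 281 and 641 CPM in its 12 and 35 HLU cells. With so few Ctrl cells, 0 UMIs do not show that the gene was absent there.

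Stem- or progenitor-like cells (Meis1, Adgrg1) were second for Ms4a2, with 98.6, 12.3, 82.1 and 15.4 CPM from 9, 2, 25 and 3 UMIs, a spread in which the groups overlapped. Neutrophil progenitor-like cells held 0.24 to 2.89 CPM and every other class averaged 0.598 CPM or less. Fcer1a, the IgE-binding chain that Ms4a2 accompanies at the membrane, was among the 3 genes most like Ms4a2 across classes, as given below. It is also one of the markers from which the basophil- or mast-like class was named.

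Ms4a3 fell in steps along the neutrophil lineage. Neutrophil progenitor-like cells (Elane, Mpo, Prtn3, Ctsg) held it at 540.0 and 568 CPM in Ctrl and at 518 and 1020.2 CPM in HLU (662 ± 240, SD, n = 4). HLU replicate 2 was high and the other 3 libraries lay close together, with HLU replicate 1 the lowest of all. This class also differed otherwise in HLU replicate 2. Its median depth was 21805.5 UMIs there, against 11312.5 and 12874 in Ctrl and 10597 in HLU replicate 1. The monocyte marker list took 0.66% of its UMIs, against 0.108%, 0.133% and 0.145% in the same order. That list took 0.288% to 0.406% in monocyte-like cells and 0.718% to 1.07% in chondrocyte-like cells, so it is no measure of monocytes. Whether the class held other progenitors as well in HLU replicate 2 was not tested. The part of depth or of these transcripts in the Ms4a3 level was not tested either. Immature neutrophil-like cells (Camp, Ltf, Ngp) held 45.2, 43.0, 44.0 and 95.0 CPM and mature neutrophil-like cells (Cxcr2, Mmp8, Il1r2) 5.32, 4.87, 5.14 and 4.23 CPM. The ranges of the 3 stages did not overlap. A UMI was found in 87.7% (95% exact interval 82.8 to 91.6), 86.4% (82.1 to 90.0), 83.0% (79.8 to 85.8) and 96.7% (95.3 to 97.8) of progenitor-like cells and in 1.21% to 1.78% of mature neutrophil-like cells.

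The clusters filled in the steps. The dividing progenitors of cluster 19 (Hist1h1b and Cdk1 among the leading genes) held Ms4a3 at 607, 615, 668 and 1098 CPM, and the progenitors of cluster 5 at 500.04, 537, 440 and 969 CPM. The dividing immature clusters 23 and 10 came next, with 92.8, 94.7, 135 and 163 CPM and with 70.4, 76.8, 65.6 and 163 CPM. Cluster 6, led by Ltf, Ngp and Camp, held 59.8, 47.2, 52.3 and 70.5 CPM, and cluster 3, led by Ifitm6 and Ltf, held 2.83 to 5.68 CPM, close to the mature cells. Cluster 17, led by Ldhc and Gadd45a, lay between these last 2, at 9.10, 13.7, 20.2 and 13.95 CPM.

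**Figure D3:**
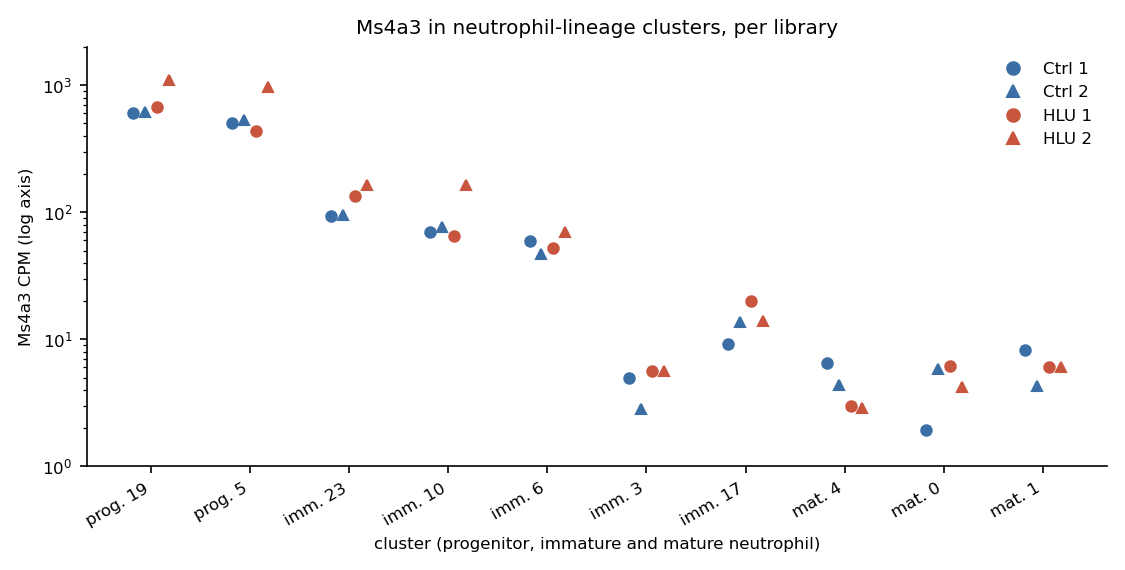
Ms4a3 in CPM on a log axis, per library, in the clusters of progenitor, immature and mature neutrophil-like cells except mature cluster 29 (circles for replicate 1, triangles for replicate 2, blue for Ctrl, red for HLU). The level falls from 440 to 1098 in the progenitor clusters 19 and 5 to 2.83 to 5.68 in the immature cluster 3, and HLU replicate 2 is the highest library in the progenitor clusters.

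Ms4a3 was not confined to neutrophils. Basophil- or mast-like cells ranked second with 222, 156, 182 and 293 CPM (213 ± 59.6, SD, n = 4), above all 4 values of immature neutrophil-like cells. Within that class it was read in cluster 24.0 at 301, 192, 211 and 386 CPM, the same cluster that held most of the Ms4a2. Monocyte-like cells held little of it, 9.41, 13.8, 7.78 and 5.90 CPM.

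Ms4a3 did not differ beyond the spread between libraries after unloading. In neutrophil progenitor-like cells the difference was 0.22 ± 0.35 (adjusted p = 0.878), and 0 of 4 members tested were called by edgeR, 0 at an unadjusted p under 0.05 and 0 by DESeq2, against 0.249% of 10029 genes. In immature neutrophil-like cells it was 0.82 ± 0.48 (adjusted p = 0.584, 0 of 2 members called by edgeR and 0 by DESeq2, 1.35% of 10205 genes called). HLU replicate 2 decided these values. Without it the difference was -0.25 in progenitor-like and -0.13 in immature neutrophil-like cells. Without HLU replicate 1 the difference rose to 1.37 in the latter, and each of these fits left 1 HLU library. In mature neutrophil-like cells Ms4a3 differed by 0.03 ± 0.42 (adjusted p = 0.987), with 0 of 2 members called by either tool and 2.72% of 8801 genes called.

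Ms4a4b marked T-like and NK-like cells alike. T-like cells (Cd3d, Trac, Trbc2, with all 8 markers present in each library) held 903 and 817 CPM in Ctrl and 579 and 850.3 CPM in HLU (788 ± 143, SD, n = 4). NK-like cells (Klre1, Gzma), at 7, 9, 7 and 37 cells, held 634, 1060, 279 and 1298 CPM (818 ± 452, SD, n = 4), a range that enclosed that of T-like cells. No other class came near in more than 1 library. The third highest mean, in osteoblast-like cells, came from 10 UMIs in 1 library. In the other lymphoid and myeloid classes the highest single values were 77.6 CPM in plasmacytoid dendritic-like cells of HLU replicate 2 and 49.8 CPM in dendritic-like cells of Ctrl replicate 2. A Ms4a4b UMI was found in 71.4% (95% exact interval 56.7 to 83.4), 67.2% (58.1 to 75.4), 63.2% (52.2 to 73.3) and 72.2% (67.3 to 76.8) of T-like cells and in 0.04% to 0.18% of mature neutrophil-like cells.

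Ms4a6b was read in both lymphoid and myeloid cells. T-like cells led with 336, 338, 260.5 and 347 CPM (321 ± 40.3, SD, n = 4), above every other named class in each library. The CD8-bearing cluster (Cd8b1 and Lef1 among its leading genes) held 416, 450.0, 568 and 410.0 CPM and the cluster led by Ikzf2, Cxcr6 and Il2rb 264, 273, 213 and 330 CPM, so that the former was above the latter in 4 of 4 libraries. Monocyte-like cells followed with 107, 96.4, 140 and 125 CPM (117 ± 19.2, SD, n = 4), plasmacytoid dendritic-like cells with 57.7, 96.2, 74.1 and 173 CPM and NK-like cells with 59.5, 77.5, 115 and 132 CPM. These last 3 overlapped within their spread. The order of Ms4a4b and Ms4a6b thus parted in NK-like cells, in which the range of Ms4a4b enclosed that of T-like cells while Ms4a6b was lower than in T-like cells in 4 of 4 libraries.

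Neither gene differed beyond its error in T-like cells after unloading. The difference was -0.26 ± 0.34 for Ms4a4b (adjusted p = 0.947) and -0.15 ± 0.35 for Ms4a6b (adjusted p = 0.962). Of the 4 members tested, 0 were called by edgeR, 0 had an unadjusted p under 0.05 and 0 were called by DESeq2, with 0.499% of 5212 genes called.

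**Figure D4:**
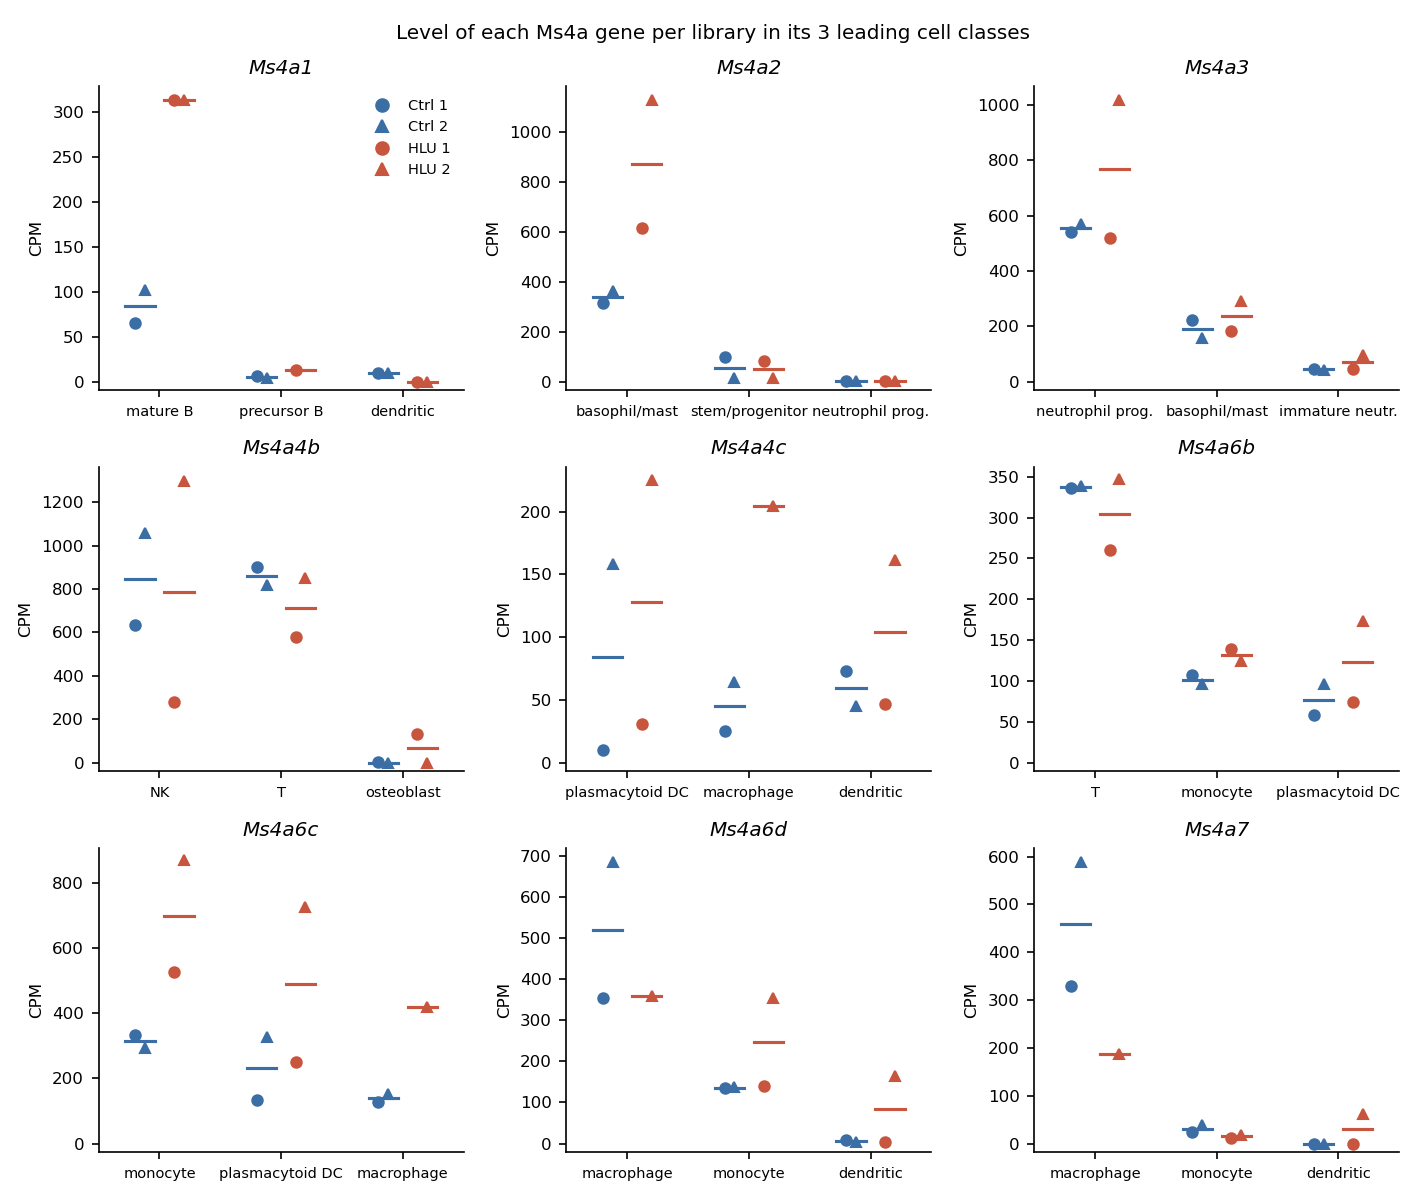
CPM per library of each Ms4a gene in the 3 classes with its highest mean, with circles for replicate 1, triangles for replicate 2, blue for Ctrl, red for HLU and a short line at each group's mean (libraries with under 5 cells of a class are left out). Ctrl and HLU points lie apart for Ms4a1 in mature B-like cells (65.3 and 102 against 313 and 313) and for Ms4a2 in basophil- or mast-like cells (314.5 and 362 against 617 and 1129), and overlap for Ms4a4b and Ms4a6b in T-like cells.

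Ms4a4c, whose coding sequence and promoter are the closest to those of Ms4a4b, was spread over 5 classes with no clear leader. Plasmacytoid dendritic-like cells held 9.62, 158, 30.9 and 225 CPM (106 ± 103, SD, n = 4), macrophage-like cells 25.3, 64.5 and 204 CPM in 3 libraries, dendritic-like cells 73.3, 45.3, 47.1 and 161 CPM, mature B-like cells 30.1, 48.0, 109 and 128 CPM and monocyte-like cells 58.4, 64.3, 71.8 and 70.7 CPM (66.3 ± 6.23, SD, n = 4). The ranges of all 5 classes overlapped, and monocyte-like cells were the steadiest. The dendritic-like class, led by Ccl22 and Fscn1, had no UMI of its markers Clec9a and Xcr1 in any library, so its levels are those of this class alone. T-like cells held 17.4 to 41.7 CPM, whereas Ms4a4b stood at 579 to 903 CPM in the same cells. Whether any of the Ms4a4c UMIs there came from Ms4a4b transcripts was not tested. In cluster 12 of the mature B-like cells Ms4a4c was near constant, at 91.7, 80.1, 92.6 and 94.5 CPM, and its difference of 1.32 ± 0.30 (adjusted p = 0.0156, edgeR) over the whole B-like class became -0.12 ± 0.30 (adjusted p = 1) in that cluster and 0.06 ± 0.26 (adjusted p = 0.976) among cells with a Cd79a or Cd79b UMI.

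Plasmacytoid dendritic-like cells divided into 2 clusters that these genes told apart. Cluster 25.1 (Cd7, Cox6a2, Tmem176a) held Ms4a6c at 200, 407, 373 and 792 CPM and Ms4a6b at 92.1, 123, 122 and 193 CPM. Cluster 25.2, with Ccr9, Siglech and the lymphoid genes Dntt and Ly6d in front, held 2, 2, 11 and 6 UMIs of Ms4a6c, which is 25.8, 28.9, 57.5 and 151 CPM, and 0 UMIs of Ms4a6b in all 4 libraries, where 3 UMIs would be 15.7 to 75.6 CPM. Ms4a4c had 2 UMIs in cluster 25.2 and 153 in cluster 25.1. In the whole class 0 of 3 members tested were called between conditions by edgeR, 0 at an unadjusted p under 0.05 and 0 by DESeq2, and 0% of 5113 genes were called by edgeR (194 at an unadjusted p under 0.05, 17 called by DESeq2). Ms4a6c differed by 0.95 ± 0.65 (adjusted p = 0.990) and Ms4a4c by 0.40 ± 1.12 (adjusted p = 0.990), and without HLU replicate 2 they came to -0.01 and -1.64. A fit with 1 HLU library left holds no spread between unloaded mice.

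Ms4a6c had its highest mean level in monocyte-like cells. They held 333 and 294 CPM in Ctrl and 525 and 869 CPM in HLU, from 708, 1111, 2971 and 16499 UMIs (505 ± 263, SD, n = 4), and both HLU libraries lay above both Ctrl libraries. Plasmacytoid dendritic-like cells followed with 135, 326, 249.1 and 726 CPM, macrophage-like cells with 126, 153 and 419 CPM and dendritic-like cells with 82.5, 90.5, 42.4 and 244 CPM. Monocyte-like cells were above dendritic-like cells in each library, whereas the other ranges overlapped. A UMI was found in 60.8% (95% exact interval 53.6 to 67.7), 59.6% (54.1 to 65.0), 83.4% (79.5 to 86.8) and 91.1% (89.4 to 92.6) of monocyte-like cells, at median depths of 8883, 9549, 12004 and 13118 UMIs, and in 0.40%, 0.30%, 0.74% and 1.44% of mature neutrophil-like cells. With each cell thinned to 1000 UMIs, the share in monocyte-like cells was 23.5% and 19.8% in Ctrl and 36.8% and 46.4% in HLU, so the order held at equal depth.

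Ms4a6d and Ms4a7 had their highest mean levels in macrophage-like cells. These cells (C1qa, C1qb, C1qc, Mrc1, with Cd5l and Spic in front) numbered 5, 13, 1 and 58, and the library with 1 cell is left out here. They held Ms4a6d at 354 and 685 CPM in Ctrl and 358 CPM in HLU replicate 2, and Ms4a7 at 329, 588 and 188 CPM. Monocyte-like cells held Ms4a6d at 136, 137, 141 and 354 CPM and Ms4a7 at 23.5, 38.7, 12.02 and 18.6 CPM. For Ms4a7 the lowest macrophage value was above the highest monocyte value, while for Ms4a6d the macrophage and monocyte values met in HLU replicate 2. A Ms4a7 UMI was found in 5 of 5, 8 of 13 and 27 of 58 macrophage-like cells and in 7.73%, 8.87%, 8.41% and 15.9% of monocyte-like cells. Dendritic-like cells had Ms4a6d at 9.17, 4.53 and 4.71 CPM in 3 libraries but at 166 CPM in HLU replicate 2, and Ms4a7 in HLU replicate 2 only (61.0 CPM from 28 UMIs).

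The 2 clusters of monocyte-like cells held these genes in different measure. Cluster 14, with Ccr2, Cx3cr1 and F13a1 among its leading genes, held 54, 141, 174 and 456 cells, and cluster 7, led by Serpinb2, Il1a and Msr1, held 140, 186, 254 and 794. Ms4a7 was higher in cluster 7 in 4 of 4 libraries, at 35.1, 54.9, 15.4 and 29.7 CPM against 0, 19.2, 8.25 and 7.89 CPM in cluster 14, where the 0 of Ctrl replicate 1 allows up to 4.28 CPM (3 UMIs). Ms4a6b went the other way, with 118, 138, 182 and 190.5 CPM in cluster 14 against 101, 61.7, 102 and 57.0 CPM in cluster 7. Ms4a6c was also higher in cluster 14 in each library (335, 338, 573 and 1165 CPM against 332, 257, 482 and 564 CPM), though in Ctrl replicate 1 the values were nearly equal. Ms4a6d was higher in cluster 7 in the Ctrl libraries and HLU replicate 1 (174, 178 and 163 CPM against 57.0, 88.5 and 116 CPM) and lower there in HLU replicate 2 (329 against 378 CPM).

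**Figure D5:**
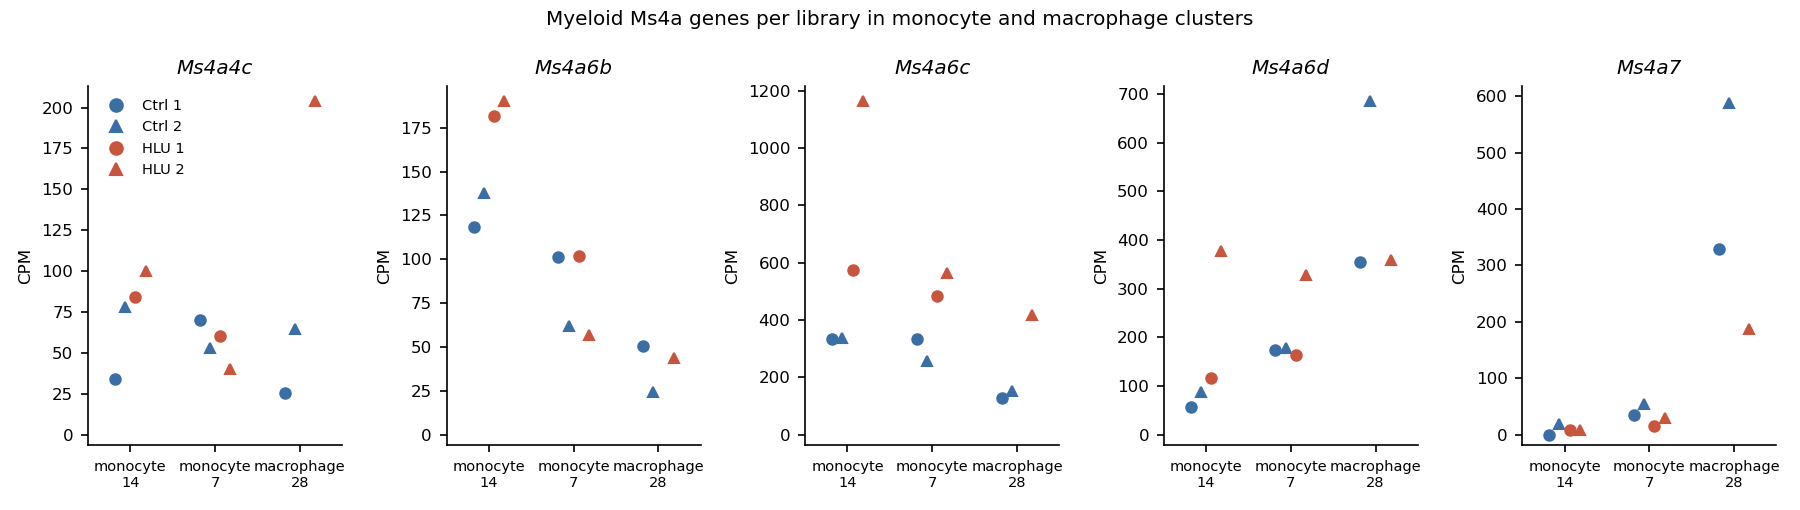
CPM per library of Ms4a4c, Ms4a6b, Ms4a6c, Ms4a6d and Ms4a7 in monocyte clusters 14 (Ccr2, Cx3cr1) and 7 (Serpinb2, Il1a) and macrophage cluster 28 (C1qa, Cd5l), with circles for replicate 1, triangles for replicate 2, blue for Ctrl and red for HLU. Ms4a7 steps up from cluster 14 (at most 19.2) to cluster 7 (15.4 to 54.9) to macrophages (188 to 588), whereas Ms4a6b is higher in cluster 14 than in cluster 7 in each library.

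After unloading, 0 of the 7 members tested in monocyte-like cells were called by edgeR and 0 by DESeq2, against 0.127% of 10259 genes called, while 2 had an unadjusted p under 0.05. Ms4a6c was higher by 1.13 ± 0.38 (adjusted p = 0.823 in edgeR's fit) and Ms4a7 lower, at -1.03 ± 0.39 (adjusted p = 0.823 in edgeR's fit). Ms4a6d differed by 0.85 ± 0.50, Ms4a6b by 0.34 ± 0.27, Ms4a4c by 0.19 ± 0.25, Ms4a4b by -0.48 ± 0.71 and Ms4a3 by -0.81 ± 0.38, each with an adjusted p of 0.823 to 0.880 in edgeR's fit. For Ms4a6d the 2 Ctrl libraries and HLU replicate 1 were level, and only HLU replicate 2 was higher. Without HLU replicate 1, Ms4a6c differed by 1.45 and Ms4a6d by 1.36, and without HLU replicate 2, Ms4a7 differed by -1.47. Each of these fits left 1 HLU library and so held no spread between unloaded mice. In cluster 14 alone 0 of 7 members were called (3 at an unadjusted p under 0.05, 0.143% of 9099 genes called) and in cluster 7 alone 0 of 6 (1 at an unadjusted p under 0.05, 0.0892% of 8965 genes called). Neutrophil transcripts in monocyte-like cells were 0.266% and 0.523% of UMIs in Ctrl and 0.790% and 1.03% in HLU, and macrophage markers 0.0161% and 0.0177% in Ctrl and 0.0191% and 0.0378% in HLU. Their part in these values was not tested.

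Receptors reported beside MS4A proteins in macrophages and microglia were also compared. Of 8 such genes, 7 were tested in monocyte-like cells and 0 were called by edgeR in either direction, with a median of -0.48 against 0.04 for all genes. Trem2, the lipid receptor whose soluble form MS4A proteins are known to modulate, differed by -0.85 ± 0.86 (adjusted p = 0.840), and Tyrobp, its signalling adaptor, by 0.01 ± 0.31 (adjusted p = 0.995). In mature B-like cells edgeR called 2 genes of this list, Axl (-6.66 ± 0.49, adjusted p = 5.7e-05) and Lgals3 (-5.27 ± 0.42, adjusted p = 7.2e-05). Both are read in macrophages and connective tissue too. All 8 skeletal transcripts that were tested also fell in mature B-like cells, and a link between these falls was not tested.

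In skeletal classes a member was called beside transcripts of blood cells. Ms4a6c was called in chondrocyte-like cells (6.07 ± 0.84, adjusted p = 0.0482, edgeR), the only call among 5 members tested, with 1.46% of 12427 genes called. It stood at 0.97, 1.01, 29.2 and 131 CPM. Of these cells, 97.7% and 98.4% in Ctrl but 31.2% and 56.0% in HLU had UMIs of at least 2 chondrocyte markers. Such a share moves with depth, and median depths were 8717 and 9749 UMIs in Ctrl but 1356.5 and 4834 in HLU. Neutrophil transcripts made up 0.597% and 1.26% of the UMIs of the class in Ctrl against 7.58% and 4.16% in HLU. Ms4a6c itself averaged 2.29 CPM in mature and 1.78 CPM in immature neutrophil-like cells. The part of depth or of neutrophil transcripts in the call was not tested. Genes of the receptor lists used in myeloid cells were called in the same class, Fcer1g (4.19 ± 0.36), Lyn (3.88 ± 0.44), Syk (3.13 ± 0.33), Tyrobp (3.54 ± 0.48) and Csf1r (3.98 ± 0.55), at adjusted p of 0.0482 to 0.0483 in edgeR's fit, and Lyn in mesenchymal stromal-like cells (3.98 ± 0.63, adjusted p = 0.0486). Without cluster 8, which held 267 of the 314 and 84 of the 184 HLU cells of the class, 0 of 4 members were called, and 0% of 12267 genes (2293 at an unadjusted p under 0.05). All 4 members had an unadjusted p under 0.05 there, and Ms4a6c still differed by 4.55 ± 0.96 (adjusted p = 0.115, edgeR) and Ms4a6d by 4.98 ± 0.94 (adjusted p = 0.0955, edgeR). In mesenchymal stromal-like cells Ms4a6c, the only member tested, missed the threshold in edgeR (6.83 ± 1.41, adjusted p = 0.0736, 2.11% of 11113 genes called) and passed in DESeq2 (6.77, adjusted p = 0.000170). In the unnamed cluster 9 (Clec4n, Ptgr1) no member had enough counts to be tested, and 0.169% of 5919 genes were called.

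Summed over all kept cells, 4 of the 9 members were called, all higher in HLU (Ms4a2, Ms4a4c, Ms4a6b and Ms4a6c), with 23% of 15288 genes called and 6% called higher. In such sums more cells of a type and more RNA per cell cannot be told apart. Ms4a2 stood at 0.60 and 1.25 CPM in Ctrl and 4.89 and 7.26 CPM in HLU (2.80 ± 0.52, adjusted p = 0.0220). Ms4a6c stood at 17.03 and 25.7 CPM against 81.9 and 231 CPM (2.98 ± 0.63, adjusted p = 0.0285), Ms4a6b at 6.86 and 12.01 CPM against 25.9 and 40.9 CPM (1.92 ± 0.43, adjusted p = 0.0336) and Ms4a4c at 4.18 and 8.67 CPM against 17.5 and 23.5 CPM (1.76 ± 0.45, adjusted p = 0.0451). Both HLU libraries exceeded both Ctrl libraries for each of the 4.

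Ms4a3 (36.0 and 52.7 against 103 and 279 CPM, adjusted p = 0.0510) and Ms4a6d (6.42 and 11.9 against 20.4 and 92.2 CPM, adjusted p = 0.0699) missed the threshold of edgeR although their groups did not overlap either. Ms4a1 (2.71 and 5.27 against 18.05 and 6.22 CPM, adjusted p = 0.106), Ms4a4b (adjusted p = 0.278) and Ms4a7 (1.26 and 4.16 against 1.77 and 6.31 CPM, adjusted p = 0.582) were not called. All 4 calls were lost when either Ctrl library was left out, in fits that left 1 Ctrl library. The share of all genes called in those fits is not given here, so this is no result about the members. Shares of some classes were higher in both HLU libraries: monocyte-like cells were 2.81% and 4.56% of the Ctrl cells and 5.90% and 14.3% of the HLU cells, neutrophil progenitor-like cells 3.42% and 4.31% against 8.57% and 10.001%, and basophil- or mast-like cells 0.145% and 0.307% against 0.510% and 0.803%. Those of T-like cells (0.71% and 1.70% against 1.20% and 4.05%) and of plasmacytoid dendritic-like cells (0.304% and 0.433% against 0.62% and 0.39%) overlapped between the groups. These shares are of cells that remain after flushing and digestion, and they also move when skeletal cells are fewer.

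The IgE receptor pathway was read beside Ms4a2 in the same sums. Of 10 genes of the receptor and its first signalling steps, all 10 were tested, and 6 rose and 1 fell, with a median of 1.70 against 0.04 for all genes. Of all 15288 genes tested in these sums, 23% were called and 6% were called higher. Fcer1a, the IgE-binding chain, rose by 2.71 ± 0.61 (adjusted p = 0.0340) and Fcer1g, the γ chain that Fc receptors share, by 1.71 ± 0.31 (adjusted p = 0.0210). The kinases Lyn (1.84 ± 0.31, adjusted p = 0.0169), Syk (1.70 ± 0.30, adjusted p = 0.0188) and Btk (1.91 ± 0.28, adjusted p = 0.0114) and the phospholipase Plcg2 (1.69 ± 0.31, adjusted p = 0.0216) rose and the kinase Fyn fell (-1.43 ± 0.35, adjusted p = 0.0425), all in edgeR's fit. Apart from Fcer1a these genes are used throughout blood cells. The list was drawn up with results of these data known.

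Of the B cell receptor list, 0 of 10 rose and Cd81 fell (-1.67 ± 0.36, adjusted p = 0.0305) in all cells, where 23% of 15288 genes were called and 6% called higher. Of the macrophage receptor list Csf1r (1.78 ± 0.38, adjusted p = 0.0302) and Tyrobp (1.33 ± 0.28, adjusted p = 0.0293) rose there. Apoe (-1.60 ± 0.25, adjusted p = 0.0135) and Axl (-3.84 ± 0.34, adjusted p = 0.00413) fell, all in edgeR's fit.

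Shares of cells with a UMI, thinned to 1000 UMIs a cell, were compared for 90 pairs of a member and a class. In 41 pairs the HLU and Ctrl libraries did not overlap. This gives the smallest p that an exact permutation test of 2 libraries against 2 allows (two-sided p = 0.3333), and the smallest adjusted p was 0.732. By that p, non-overlap is common without any effect of condition. No such count was made over all genes, so 41 is no result about these members. The design cannot reach 0.05 here.

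The genes whose pattern over classes was most like that of each member were listed by a fixed rule. Likeness was the Pearson correlation of mean log2(CPM + 1) over the 20 named classes, among genes with at least 100 UMIs, and it describes these classes with no test, since they share libraries. Ms4a1 was most like Ffar1 (0.957), Bank1 (0.922) and Iglc2 (0.916). Ms4a2 went with Csrp3 (0.950), the mast cell protease gene Cpa3 (0.942) and Fcer1a (0.934). Cpa3 and Fcer1a are markers that named the basophil- or mast-like class, so their likeness to Ms4a2 is no independent support. Ms4a3 went with Far2 (0.880), Fanca (0.879) and Prss57 (0.868). Ms4a4b went with Klrc1 (0.951), Cxcr3 (0.951) and Sidt1 (0.948). Among myeloid members, Ms4a4c was most like Ctss (0.954), Phf11b (0.946) and Bcl2a1b (0.912), Ms4a6b like Lpxn (0.912) and Ms4a6c (0.880) and Ms4a6c like Ctsc (0.899), Ms4a6b (0.880) and Trim36 (0.829). Ms4a6d was most like the scavenger receptor genes Msr1 (0.948) and Marco (0.937) and the Fc receptor gene Fcgr1 (0.938), and Ms4a7 like Fcgr1 (0.969), Slamf8 (0.969) and Kcnk13 (0.950). Ms4a6b and Ms4a6c were thus the only members found among each other's 3 nearest genes.

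The rest of the family added 4 genes to this map. Of 15 further family genes listed, 12 were in the matrix and 9 had any UMI, and 3 (Ms4a10, Ms4a12 and Ms4a18) had 0 UMIs in 30042 cells. Ms4a4a, a macrophage member with 587 UMIs, was read in monocyte-like cells at 10.4, 7.15, 9.19 and 23.8 CPM. Tmem176a and Tmem176b, relatives of the family known from dendritic cells, peaked in dendritic-like cells (Tmem176a at 1604, 1317, 1468 and 1331 CPM), with plasmacytoid dendritic-like cells behind (419, 295, 447 and 1342 CPM), and Ms4a14 reached 10.5 CPM in macrophage-like cells from 5 UMIs. Tmem176a thus showed no Ctrl and HLU split in dendritic-like cells, in contrast to its single high value in plasmacytoid dendritic-like cells of HLU replicate 2. The dendritic-like cells are those without a UMI of Clec9a or Xcr1, as given above.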

How the data were processed

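Bone cells of 2 Ctrl and 2 HLU mice were sequenced, 1 library per mouse. Per the labels and the study's methods, the authors aligned and counted reads with Cell Ranger 6.0.0 against mm10, and deposited raw UMI counts per gene and barcode without normalization (the labels also list Seurat 4.1.0). The 4 libraries held 10000 to 10003 barcodes and 47819046 to 99849070 UMIs.

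Kept barcodes had at least 200 genes, 1000 to 40000 UMIs and no more than 10% of mitochondrial UMIs, and putative doublets were removed by Scrublet at 0.8% per 1000 cells. Libraries were integrated with Seurat 5.3.0 under R 4.3.3 (2000 variable genes without Ms4a genes, 50 principal components, resolution 1), which gave 30 clusters, 43 after 5 mixed ones were split. A cluster was named from at least 3 markers raised by a log2 fold change of 1. Counts were summed per library and class, and classes with at least 20 cells in each library were tested with edgeR 4.0.16 (TMM factors, quasi-likelihood test, Benjamini-Hochberg adjustment over all genes tested, called at an adjusted p below 0.05). The SE is the log2 fold change divided by the square root of F. Nothing beyond separate mice is said of the replicates, and p-values measure the spread between 2 libraries a group. Shares were compared by exact permutation tests. The steps were tested on simulated data. Other tools were Python 3.11.15, numpy 2.4.6, pandas 2.3.3, scipy 1.17.1 and Biopython 1.88.

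Members, gene lists, markers and thresholds were chosen with earlier results of these data known. Named are all members, family genes over 5 CPM, genes of the IgE receptor, B cell receptor and macrophage receptor lists that passed in any class (of which those in the classes described are given) or were fixed by name, and the 3 genes most like each member. Values of 2 genes under this rule are not reported here. Alternatives were DESeq2 1.42.0, library totals, other count filters, other clusterings, doublets kept, haemoglobin barcodes left out, dividing cells left out, a replicate block and each library left out. Single clusters, B-like cells with a Cd79a or Cd79b UMI, the class without cluster 8 and a crossed block were added after seeing the data.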

Additional observations from a re-analysis of the deposited data

Results flagged for a closer look

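Ms4a3 differed in opposite directions between conditions in classes outside the neutrophil lineage, with every library of each class on the side given, and the difference between classes was not tested. None of these differences was called: the adjusted p of edgeR was 0.0549 in chondrocyte-like and 0.823 in monocyte-like cells, and Ms4a3 had too few UMIs for a test in plasmacytoid dendritic-like cells. In chondrocyte-like cells the HLU mean was 38.2 CPM above the Ctrl mean, with 1.30 and 4.02 CPM in Ctrl and 44.7 and 37.0 CPM in HLU. In monocyte-like cells the difference was -4.75 CPM (9.41 and 13.8 against 7.78 and 5.90 CPM), and in plasmacytoid dendritic-like cells it was -12.5 CPM (4.81 and 24.8 against 2.06 and 2.59 CPM, from 1, 8, 1 and 1 UMIs). All 3 levels are far under that of progenitor-like cells. Neutrophil transcripts made up 7.58% and 4.16% of the UMIs of the HLU chondrocyte-like cells, and their part in the Ms4a3 values was not tested.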

How the results depend on the processing

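Counts of called members in this section are given without the share of all genes called in the same setting. They show how the calls depend on the processing and are no result about the members. In chondrocyte-like cells the count (1 by edgeR as given, with 1.46% of 12427 genes called) changed with the processing. It was 4 with DESeq2, 4 with library totals in place of TMM factors, 4 without a filter on low counts, 2 with at least 10 counts in every library, 3 with doublets kept, 0 at resolution 0.5, 0 at resolution 2, 2 without integration, 0 with dividing cells left out and 0 with cluster 8 left out. In mature B-like cells (4) it was 2 with at least 10 counts in every library, 0 without integration, 0 among cells with a Cd79a or Cd79b UMI and 0 in cluster 12 alone. It was 1 in mature neutrophil-like cells, 4 in mesenchymal stromal-like cells and 2 in plasmacytoid dendritic-like cells without a filter on low counts (0 each as given), and 1 in mesenchymal stromal-like cells with DESeq2. In all cells (4) it was 7 with DESeq2 and 7 without a filter. With each library left out in turn the count ran from 1 to 4 in chondrocyte-like, 0 to 1 in immature neutrophil-like, 1 to 4 in mature B-like, 0 to 1 in mature neutrophil-like, 0 to 3 in mesenchymal stromal-like, 0 to 4 in monocyte-like and 0 to 3 in plasmacytoid dendritic-like cells and from 0 to 7 in all cells, and it was 0 each time in T-like, neutrophil progenitor-like cells and cluster 9. Where 1 library was left in a group, it was assumed to vary like the others.

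Differences on the log2 scale changed sign as follows. In cluster 12 alone Ms4a4c came to -0.117, and in monocyte cluster 7 alone Ms4a4c came to -0.323 and Ms4a6b to -0.078. Without HLU replicate 2 the values were -0.251 for Ms4a3 in progenitor-like (0.52 without HLU replicate 1) and -0.132 in immature neutrophil-like cells (1.368), -0.029 for Ms4a6d in monocyte-like cells (1.36), -1.64 for Ms4a4c and -0.012 for Ms4a6c in plasmacytoid dendritic-like cells (3.552 and 1.73 without Ctrl replicate 2) and -0.624 for Ms4a7 in all cells (1.796 without Ctrl replicate 2). Without Ctrl replicate 1 Ms4a4c in plasmacytoid dendritic-like cells was -0.466. In T-like cells, Ms4a4b was 0.027 and Ms4a6b 0.076 without HLU replicate 1 and -0.718 and -0.53 without HLU replicate 2, and Ms4a6b was 0.019 without integration. Shares of cells with a UMI (HLU minus Ctrl, percentage points) changed sign for Ms4a3 in progenitor-like cells (-1.714 without HLU replicate 2, 18.642 without HLU replicate 1), for Ms4a4b (0.055 with doublets kept, 4.571 without HLU replicate 1, -6.04 without HLU replicate 2) and Ms4a6b (0.446, 2.178 and -4.72) in T-like cells and for Ms4a7 in monocyte-like cells (3.865 without thinning, 0.203 without Ctrl replicate 2, 0.463 without HLU replicate 1, -0.941 without HLU replicate 2). The causes were not tested. Library totals moved the median of all genes to 0.13 in plasmacytoid dendritic-like, 0.25 in chondrocyte-like, 0.27 in mature B-like, 0.29 in progenitor-like and 0.31 in mesenchymal stromal-like cells, and no member changed sign under them.

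Same-numbered libraries share only a number. The correlation of their deviations from the group means was 0.28 in cluster 9, 0.119 in progenitor-like cells, -0.146 in chondrocyte-like cells and -0.0399 to 0.00422 elsewhere. With the replicate block 4 members were called in chondrocyte-like, 1 in mesenchymal stromal-like cells and 6 in all cells, and crossing the numbers in chondrocyte-like cells gave 4. Of the other values, 382 stayed the same by the rule of their kind. Log2 differences kept their sign and their side of the threshold, shares of cells kept their sign, and levels stayed within their SD. Of the log2 differences, 25 passed the threshold and 29 lost it, and 1 level moved by its SD or more. Depth limits values that rest on few UMIs, above all in macrophage-like, NK-like and basophil- or mast-like cells.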

Other observations

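The unnamed cluster 25.3, with genes of antigen presentation (H2-Ab1, H2-Aa, Cd40, Il4i1) in front, held several myeloid members at high levels, from only 2, 1, 3 and 14 cells in Ctrl 1, Ctrl 2, HLU 1 and HLU 2. It held Ms4a6c at 976, 300.2, 828 and 893 CPM, Ms4a6d at 813, 500.4, 55.2 and 615 CPM and Ms4a6b at 867, 600.4, 497 and 377 CPM. Ms4a6b was above the T-like level in 4 of 4 libraries, while the Ms4a6d value of HLU 1 rests on 2 UMIs. The named dendritic-like cells, led by Ccl22 and Fscn1, held far less of them.

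Of the gene lists read as background, interferon-stimulated genes had 0 higher and 2 lower of 8 tested in mature B-like cells, 0 of 12 called in monocyte-like cells and 2 higher of 15 in all cells. Genes induced by dissociation had 2 lower of 11 in mature B-like cells, 0 of 11 called in monocyte-like cells and 2 lower of 11 in all cells. Genes of the S, G2 and M phases had 0 of 13, 0 of 18 and 7 higher of 18. In monocyte-like cells the medians of these lists were 0.64, -0.78 and 0.66 against 0.04 for all genes tested. Each count is from edgeR's fit. That fit called 20.4% of 9840 genes in mature B-like cells, 0.127% of 10259 in monocyte-like cells and 23% of 15288 in all cells.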
